A study of Mus musculus with 4 samples.

Results

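The mitochondrial ribosomal protein genes are the nuclear genes whose symbol is Mrpl (for the large subunit) or Mrps (for the small subunit) with a number. All protein-coding genes with such a symbol in the GENCODE M21 annotation were taken, whatever their values, which gave 78 of 21995 protein-coding genes in the files. By symbol 49 are large-subunit (Mrpl) and 29 small-subunit (Mrps) genes, and these names set the subunit groups below, although the products of Mrps18a and Mrps30 are now placed in the large subunit and that of Mrps36 in another complex. In all, 77 reached 1 FPKM or more in at least 1 stage (FPKM, fragments per kilobase of exon, scaled for the depth of the library). RNA sequencing was done on wild-type (WT) C57BL/6 fetal pancreas from 4 stages, where E stands for embryonic day: E11.5, then E13.5, then E15.5 and last E18.5. The series describes the tissue as pancreatic epithelium. The labels give 1 sample per stage, with total RNA as the material, and the deposited value of a gene is a mean FPKM. The way the epithelium was isolated and the number of fetuses pooled were not stated in the labels.

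Mitochondria translate the few proteins that their own DNA encodes on a ribosome of their own. Its ribosomal RNAs come from mitochondrial DNA, while all of its proteins are encoded in the nucleus, made in the cytosol and imported. The proteins made by this ribosome are core subunits of the respiratory chain and the ATP synthase, so its supply is tied to the capacity for oxidative phosphorylation. In the pancreas, acinar cells make and secrete large amounts of digestive enzymes, and beta cells use mitochondrial ATP to couple glucose to insulin release.

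The deposited means could be split into whole reads of 2 libraries per stage, 8 in all, and all 77 measured members were split in every library, with 176 to 4863 reads each. These libraries were recovered from the values, and no label states them, so p-values measure only the spread between them, which may be technical. For the most abundant genes and for Mrpl28, Mrpl49, Mrpl11, Mrpl43 and Mrpl16, library values were allowed to differ by at most 1.25-fold. The SD, SE and p-values of these genes are limited by that choice. The libraries held an estimated 1.37e+07 to 1.80e+07 reads. The 8 epithelial markers were at 1 FPKM or more in every stage. Other cell types changed with stage. In stage order, markers of acinar cells made up 0.00208%, 1.42%, 20.5% and 10.9% of all FPKM. Erythroid markers made up 3.10% at E11.5 and between 0.0327% and 0.0669% later, and endocrine markers ranged from 0.189% at E11.5 to 5.01% at E18.5. The 7 mesenchymal markers summed to 114 FPKM at E11.5 and to 3.39 to 46.3 FPKM later, and the 6 markers of neural crest and neurons to 714 and then 10.3 to 42.0 FPKM. In every stage 0 of the 4 endothelial markers reached 1 FPKM, and the 4 leukocyte markers summed to 30.8 FPKM at E11.5 and 1.48 to 4.19 FPKM later. The part of these shifts in the results on the mitochondrial ribosomal proteins was not tested, and in bulk RNA fewer cells of a type and less RNA per cell cannot be told apart.

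Levels below are FPKM divided by a median-of-ratios factor per stage, and differences are on the log2(FPKM + 1) scale with that scaling unless another is named. The choice of scaling mattered. Setting every stage to the same total FPKM moved the median difference of all 14840 measured genes to -0.41 between E13.5 and E15.5 and to -0.49 between E11.5 and E18.5, and scaling by estimated reads moved these medians to -0.24 and -0.26. Under median-of-ratios scaling both were 0. Results are therefore given with the range over 4 scalings (median of ratios, FPKM as deposited, the same total FPKM, estimated reads) and relative to the median of all genes. The comparisons share stages, so they are not independent of each other.

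The promoters of 69 of the 78 members were found in the RefSeq table for the GRCm38.p6 build (250 bases before to 50 after the start). They are described here because the members share a profile over the stages. On either strand, the ETS-factor motif CCGGAAG was in 37.7% of the member promoters, against 9.93% of 27025 promoters in the table and 19.7% of the 9787 promoters of measured protein-coding genes. The motif of nuclear respiratory factor 1 (NRF1), GCGCATGCG, was in 10.1% of the members, 1.95% of the table and 4.12% of measured genes. The YY1 motif AAGATGGCG was in 11.6%, 1.64% and 3.56%. At least 1 of these 3 motifs, of which CCGGAAG and AAGATGGCG can overlap, was in 36 of the 69 members (52.2%, against 25.4% of measured genes). The motif of YY1 began after the start in 6 of its 8 members, and that of NRF1 after the start in 0 of its 7. For 3 genes, the 100 bases before the RefSeq start are printed 5′ to 3′ on the gene's strand, with motifs in capitals. They are shown because they belong to the member with the largest early rise (Mrpl17, NRF1 motif), to a member with falling levels (Mrpl3, ETS motif) and to 1 of the 3 paralogs of the uS18 family (Mrps18a, ETS motif). Their positions are chr7:105811088-105811187 on the minus strand, chr9:105053168-105053267 on the plus strand and chr17:46110904-46111003 on the plus strand.
Mrpl17: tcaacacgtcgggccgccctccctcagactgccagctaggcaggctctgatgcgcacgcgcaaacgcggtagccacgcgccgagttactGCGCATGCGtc
Mrpl3: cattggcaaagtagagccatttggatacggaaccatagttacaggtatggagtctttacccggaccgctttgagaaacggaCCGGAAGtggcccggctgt
Mrps18a: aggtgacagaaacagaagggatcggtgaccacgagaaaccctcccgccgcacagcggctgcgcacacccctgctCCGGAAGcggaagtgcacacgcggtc

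Under median-of-ratios scaling, the ETS motif thus stood before the RefSeq start of a gene that rose to E15.5 (Mrps18a) and of a descending one (Mrpl3). With the same total FPKM Mrps18a differed by 0.005 from E13.5 to E15.5 (limma, adjusted p = 0.944). Beyond the printed bases Mrps18a also has a YY1 motif and Mrpl17 an ETS motif. The printed motifs of Mrpl3 and Mrpl17 lie inside the GENCODE bounds of these genes given below. Under median-of-ratios scaling, the 25 measured members with the ETS motif had median differences of 0.35, 0.44 and -0.59 in the 3 steps between successive stages, and the 43 without it 0.34, 0.28 and -0.50. For the 7 members with the NRF1 motif the medians were 0.49, 0.21 and -0.30, against 0.34, 0.36 and -0.56 in the 61 without it, so they stood higher in the first and last steps and lower in the second. The 8 members with the YY1 motif had 0.39, 0.44 and -0.63, against 0.34, 0.325 and -0.54 in the 60 without it. None of these gaps was tested. These are descriptions of the letters in a window, not of binding.

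In stage order, the levels of the whole family summed to 2526 ± 91.1, 3231 ± 129, 4314 ± 35.7 and 2820 ± 1.68 FPKM (SD, n = 2 libraries). The sum was highest at E15.5 in both libraries under median-of-ratios scaling. As a share of all FPKM, which amounts to the same-total scaling, the order changed. In stage order it was 0.820% ± 0.0243, 0.953% ± 0.0310, 0.824% ± 0.00286 and 0.608% ± 0.000508 (SD, n = 2 libraries), with the highest value at E13.5 and the lowest at E18.5. E15.5 was also the stage at which the acinar markers took up 20.5% of all FPKM.

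Single members followed the family. The highest level was at E15.5 for 63 of 77 members (81.8%, against 26.6% of all measured genes), at E11.5 and at E13.5 for 6 members each (35.6% and 10.5% of all genes) and at E18.5 for 2 (27.3% of all genes). With the same total FPKM the highest level was at E13.5 for 48 members (62.3%, against 22.0% of all genes) and at E15.5 for 13 (16.9%, against 10.3%). By estimated reads it was at E15.5 for 35 (45.5%, against 15.7%) and at E13.5 for 30 (39.0%, against 18.9%). E18.5 was the highest stage for at most 2 members under any of the 4 scalings (16.2% to 27.3% of all genes). In all, 59 members had a higher level at each stage up to E15.5 and a lower one at E18.5 under median-of-ratios scaling. The share of all genes with that course was not counted.

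**Figure D1:**
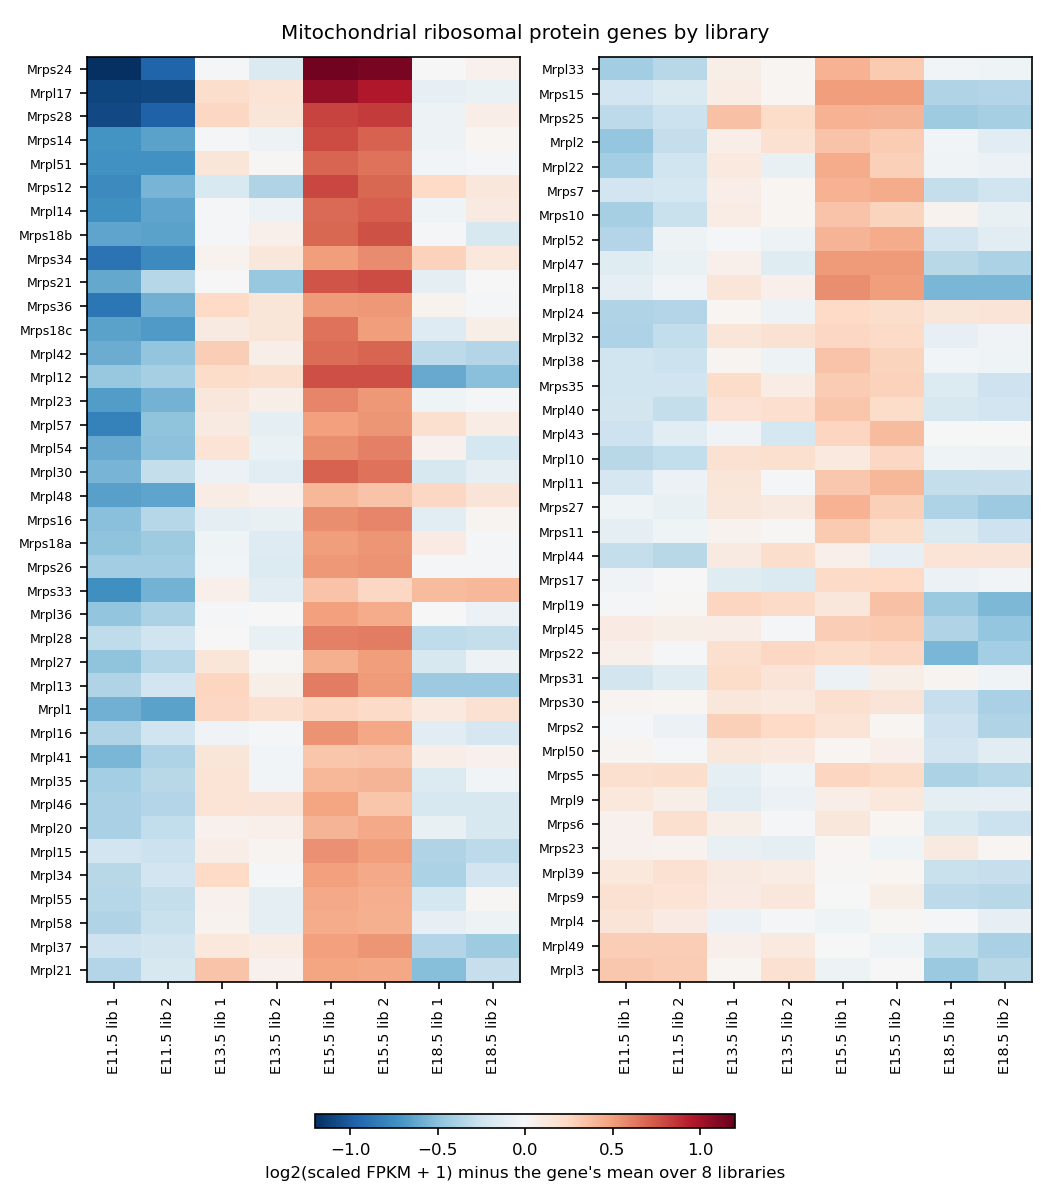
Each row is 1 of the 77 measured members and each column 1 of the 8 recovered libraries; the colour is log2(scaled FPKM + 1) minus the gene's mean over the libraries, with genes ordered by their difference between E15.5 and E11.5 from the top of the left panel to the foot of the right one. With median-of-ratios scaling 63 members (81.8%, against 26.6% of all measured genes) were highest at E15.5. With the same total FPKM 13 were (16.9%, against 10.3%). Mrpl3 and Mrpl49 stand at the foot with their highest levels at E11.5.

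From E11.5 to E13.5, the age at which the pancreatic bud grows out and its progenitors branch, most members were higher. The median difference was 0.35, against -0.03 for all measured genes, a fold of 1.27 on the FPKM + 1 scale. By limma with Benjamini-Hochberg adjustment over 13913 genes, 60 of 77 members rose and 7 fell, where 32.1% of all genes rose and 37.1% fell. Both libraries of E13.5 lay above both of E11.5 in 62 members and below in 9 (40.5% and 45.2% of all genes). In 48 members (62.3%, against 27.6% of genes) the rise passed the test under all 4 scalings. The median over the 4 scalings lay between 0.22 and 0.40, and relative to the median of all genes between 0.38 and 0.40. The Mrpl genes had a median of 0.40 and the Mrps genes of 0.32.

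Only 2 of the 77 members passed a rule of size. It asks for a log2 difference of at least 1 with the higher level at 5 FPKM or more. They were Mrpl17 and Mrps28, both higher, and 0 members were lower. By this rule 5.78% of all genes were higher and 5.73% lower, so the members' shares were below the background. Mrpl17, a large-subunit protein near the exit of the peptide tunnel, lies at chr7:105803206-105811099 (mm10). It measured 8.47 and 8.55 FPKM in the E11.5 libraries and 22.6 and 21.8 FPKM at E13.5. The log2 difference was 1.29 ± 0.04 SE (limma, adjusted p = 1.02e-06). Mrps28, a small-subunit protein at chr3:8802146-8923918, measured 34.6 and 37.5 FPKM and then 88.4 and 82.3 FPKM. Its difference was 1.22 ± 0.06 (SE; limma, adjusted p = 7.05e-06). Close to the rule were Mrps24, with a difference of 0.98, Mrps34, with 0.92, and Mrps36, with 0.91. For Mrps34, 77.8% of exon bases lie in exons of Mapk8ip3 or Nme3, so its reads are uncertain. These 5 genes rose under all 4 scalings.

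The 7 members that fell did so by little. The lowest difference was in Mrps5, a small-subunit protein, which went from 16.7 and 16.8 FPKM to 13.3 and 13.9 FPKM, a difference of -0.28 ± 0.04 (SE; limma, adjusted p = 0.000783). Mrpl3, Mrpl49, Mrpl9 and Mrpl4 had differences of -0.17 to -0.21. Under all 4 scalings Mrpl49, Mrpl9 and Mrps5 fell, while Mrpl3 and Mrpl4 missed the threshold with FPKM as deposited (limma, adjusted p = 0.0772 and 0.0535). Without library 1 or library 2 of E11.5 fewer members fell, and so did a smaller share of all genes.

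From E13.5 to E15.5, when acinar and endocrine cells differentiate in large numbers, the direction of the family rested on the scaling. The median difference was 0.35 under median-of-ratios scaling and also with FPKM as deposited, -0.26 with the same total FPKM and -0.02 by estimated reads. Relative to the median of all genes it was positive under all 4 scalings, from 0.15 to 0.35, with 56 to 67 of the 77 members above that median. By limma 55 members rose and 3 fell under median-of-ratios scaling, where 29.6% and 27.5% of all genes did, while 4 rose and 51 fell with the same total FPKM. Under that scaling 5.19% of members and 8.85% of all genes rose, and 66.2% of members and 61.6% of genes fell, so the members' counts were near the background. By estimated reads 22.1% of members rose and 32.5% fell, where 14.6% and 50.2% of all genes did. Both libraries of E15.5 lay above both of E13.5 in 63 members and below in 8 (40.0% and 38.8% of all genes).

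**Figure D2:**
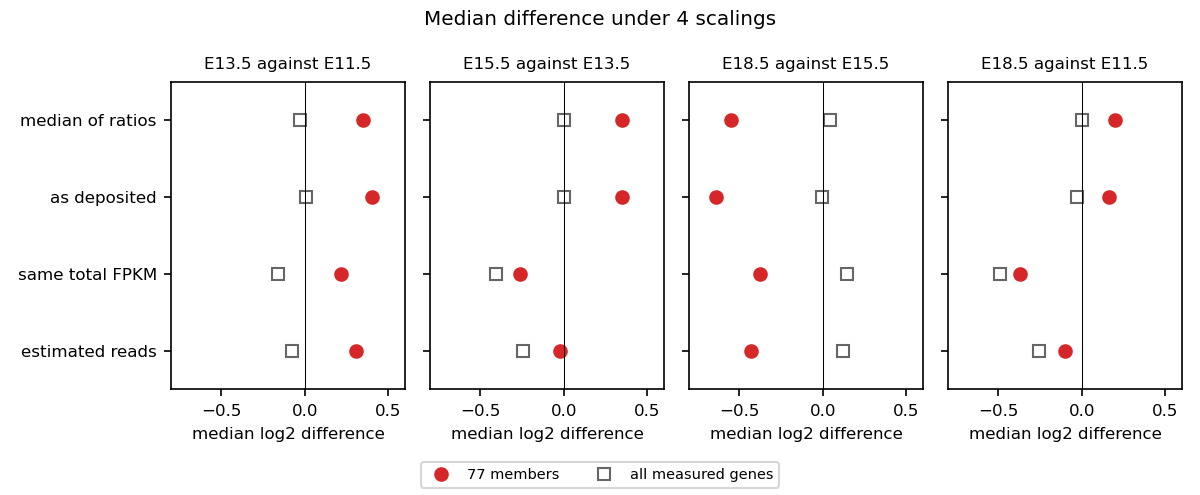
Filled points are the median log2(FPKM + 1) difference of the 77 members and open squares that of all measured genes, in 4 comparisons (panels) and under 4 scalings (rows). The members lie to the right of all genes between E11.5 and E13.5 and to the left between E15.5 and E18.5 under every scaling, whereas their own sign between E13.5 and E15.5, and between E11.5 and E18.5, changes from positive (0.35 and 0.20) to negative (-0.26 and -0.37) with the same total FPKM.

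The rise of 4 members passed the test under all 4 scalings (5.19%, against 8.85% of all genes): Mrps24, Mrps12, Mrpl17 and Mrps14. Mrps24, a small-subunit protein at chr11:5703983-5715680, measured 43.1 and 38.6 FPKM at E13.5 and 98.8 and 97.2 FPKM at E15.5. Its difference of 1.25 ± 0.09 (SE; limma, adjusted p = 6.49e-05) was the largest among the members, and it was 0.63 with the same total FPKM. Mrps12, the uS12 protein of the decoding centre, lies at chr7:28739641-28741820. It measured 88.8 and 78.6 FPKM and then 177 and 163 FPKM, a difference of 1.01 ± 0.09 (SE; limma, adjusted p = 0.000159), or 0.39 with the same total FPKM. These 2 of the 77 members were higher by the rule of size and 0 lower, both shares below those of all genes (3.64% and 1.48%). Neither passed it with the same total FPKM. Mrps21, whose E13.5 libraries stood apart at 39.1 and 28.2 FPKM, rose to 66.8 and 67.9 FPKM, but with the same total FPKM it missed the threshold (limma, adjusted p = 0.0577).

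Mrpl44, Mrpl49 and Mrps31 were the 3 members that fell, and they fell under all 4 scalings. Mrpl44, a large-subunit protein of the RNase III fold, measured 48.5 and 52.2 FPKM at E13.5 and 46.8 and 41.9 FPKM at E15.5. Its difference was -0.18 ± 0.06 SE (limma, adjusted p = 0.0413). Mrps31 differed by -0.19 (limma, adjusted p = 0.0338). None of the 3 calls was kept in every fit that left out 1 library.

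From E15.5 to E18.5 the family was lower. The median difference was -0.55, against 0.04 for all measured genes, a fold of 0.684 on the FPKM + 1 scale. By limma 70 of 77 members fell and 1 rose, where 31.3% and 38.1% of all genes did. Both libraries of E18.5 lay below both of E15.5 in 72 members and above in 2 (37.8% and 45.5% of all genes). In 60 members (77.9%, against 23.7% of genes) the fall passed the test under all 4 scalings. The median lay between -0.64 and -0.38 over the scalings, and between -0.63 and -0.52 relative to the median of all genes. The Mrpl and Mrps genes had the same median, -0.55, and with Mrps18a and Mrps30 counted as large-subunit genes and Mrps36 left out the medians were -0.53 and -0.58.

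The rule of size called 5 of the 77 members lower, Mrpl12, Mrps24, Mrpl17, Mrpl18 and Mrpl42, and 0 higher. By it 5.55% of all genes were lower and 6.29% higher, so the count of lower members was near the background. Mrpl12, the protein of the flexible stalk that recruits translation factors, lies at chr11:120484613-120489065. It measured 102 FPKM in both libraries of E15.5 and 38.6 and 41.5 FPKM at E18.5. Its difference was -1.32 ± 0.04 (SE; limma, adjusted p = 1.47e-06), and its E18.5 libraries lay below those of E11.5 (43.0 and 44.7 FPKM). Mrps24 went to 43.9 and 45.2 FPKM, a difference of -1.12 ± 0.09 (SE; limma, adjusted p = 4.98e-05). Mrpl17 went from 41.2 and 38.5 FPKM to 18.1 ± 0.18 FPKM (SD, n = 2 libraries), and its difference was -1.10 ± 0.04 (SE; limma, adjusted p = 3.13e-06).

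Mrpl18, a uL18 protein and 1 of the most abundant members, measured 227 and 219 FPKM at E15.5 and 105 FPKM in both libraries of E18.5, a difference of -1.08. Mrpl42 went from 69.9 and 71.6 FPKM to 34.9 and 33.9 FPKM, a difference of -1.02. All 5 fell under every scaling, although the number past the rule of size was 1 with the same total FPKM. In each of the 5 both libraries of E18.5 lay below both of E15.5, as they did in 37.8% of all genes.

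Few members stayed up. Mrpl44 was the member that rose, to 50.3 and 50.1 FPKM, by 0.18 ± 0.06 (SE; limma, adjusted p = 0.0358), but not with FPKM as deposited (limma, adjusted p = 0.25). Mrps33, a small-subunit protein, measured 39.8 and 37.3 FPKM and then 40.8 and 41.5 FPKM, a difference of 0.09 (limma, adjusted p = 0.359). Mrps23 differed by 0.08 (limma, adjusted p = 0.158), Mrps31 by 0.00 (limma, adjusted p = 0.992) and Mrpl4 by -0.04 (limma, adjusted p = 0.509).

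**Figure D3:**
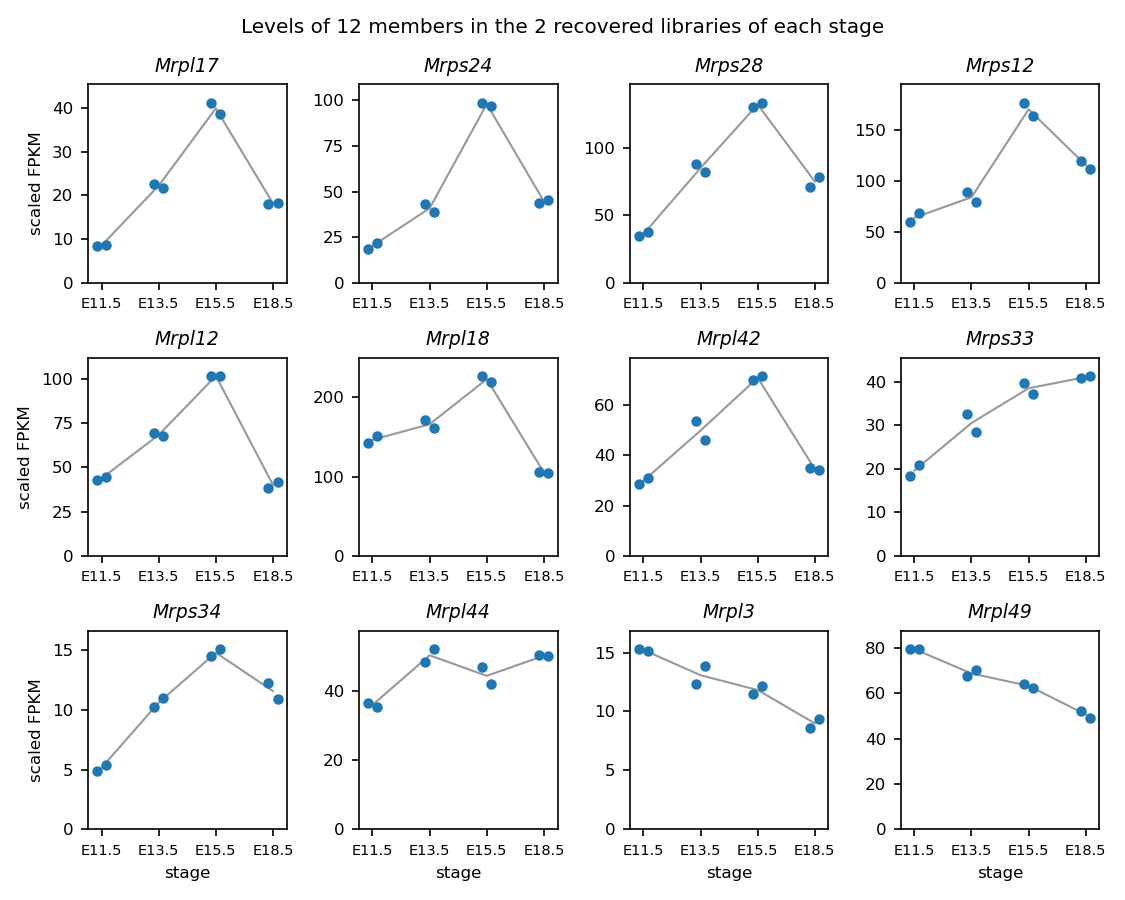
Each panel shows 1 of 12 members; points are the 2 recovered libraries of each stage, the line joins the stage means, and the vertical axis is FPKM after median-of-ratios scaling, from 0. Mrpl12 and Mrpl42 return near their E11.5 level at E18.5, Mrps33 and Mrpl44 do not drop at E18.5, and Mrpl3 and Mrpl49 are lower at each later stage.

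Between the ends of the series, E11.5 and E18.5, the family differed little and its direction again rested on the scaling. The median was 0.20 under median-of-ratios scaling, 0.16 as deposited, -0.37 with the same total FPKM and -0.10 by estimated reads, and from 0.12 to 0.20 relative to the median of all genes. By limma 41 members rose and 20 fell, where 37.4% and 38.3% of all genes did. Both libraries of E18.5 lay above both of E11.5 in 43 members and below in 26, which is 55.8% and 33.8% of members against 43.5% and 44.1% of all genes. With the same total FPKM 11.7% of members rose and 68.8% fell by limma, where 22.4% and 59.3% of all genes did. The side on which the members' limma counts stood apart from those of all genes thus changed with the scaling. The members' median did not change side, and lay above that of all genes under every scaling. The number that rose changed when single libraries were left out.

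Rises in 9 members passed the test under all 4 scalings (11.7%, against 22.4% of all genes): Mrpl1, Mrpl17, Mrpl48, Mrpl51, Mrps12, Mrps24, Mrps28, Mrps33 and Mrps34. By the rule of size Mrps24, Mrps28, Mrps33, Mrps34 and Mrpl17 were higher and 0 members lower (10.4% and 7.55% of all genes), with differences of 1.11, 1.04, 1.03, 1.03 and 1.01. Under median-of-ratios scaling these 5 of the 77 members were a smaller share than that of all genes. With the same total FPKM none of the 5 passed that rule. Falls in 20 members passed under all 4 scalings (26.0%, against 38.3% of all genes), the same number as under median-of-ratios scaling alone. Both shares were below those of all genes. The lowest were Mrpl3 (-0.70), Mrpl49 (-0.64), Mrps5 (-0.57), Mrps22 (-0.50) and Mrps9 (-0.50).

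**Figure D4:**
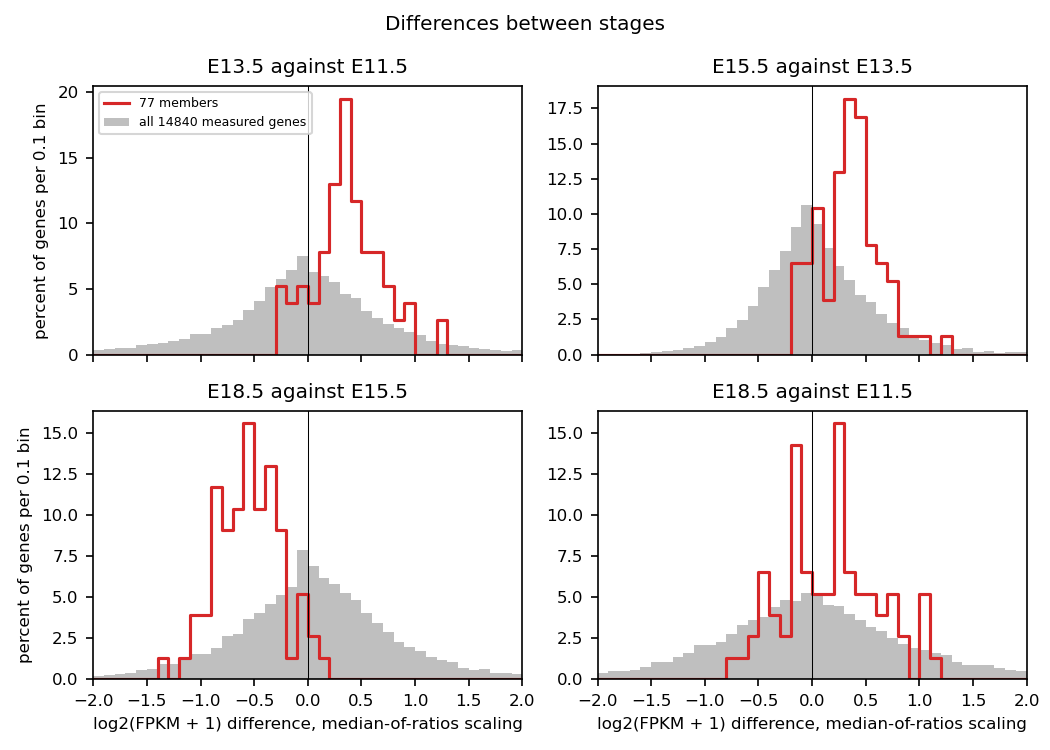
Grey bars give the share of all 14840 measured genes, and the red line that of the 77 members, in bins of 0.1 of the log2(FPKM + 1) difference after median-of-ratios scaling, for each comparison. The members lie to the right of zero in the first pair of comparisons and to the left between E15.5 and E18.5; between E13.5 and E15.5, and between E11.5 and E18.5, their median turns negative with the same total FPKM (-0.26 and -0.37) and by estimated reads (-0.02 and -0.10).

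Mrpl3, a uL3 protein next to the peptidyl transferase centre, and Mrpl49 went against the family. Mrpl3 (chr9:105053239-105079888) measured 15.2 ± 0.12, 13.1 ± 1.1, 11.8 ± 0.44 and 8.99 ± 0.53 FPKM in stage order (SD, n = 2 libraries). Its difference over the whole span was -0.70 ± 0.07 (SE; limma, adjusted p = 8.04e-05), and under median-of-ratios scaling its step from E13.5 to E15.5 missed the threshold (limma, adjusted p = 0.13). Mrpl49 (chr19:6053622-6057785) measured 79.5 and 79.6 FPKM, then 67.4 and 70.1, then 64.3 and 62.3 and last 52.0 and 49.2 FPKM in its pairs of libraries. The library values of Mrpl49 were allowed to differ by at most 1.25-fold. By the root mean square distance of their centred log2 values from the median profile of the members, the least like members were Mrps24 (0.54), Mrpl17 (0.50), Mrps28 (0.42), Mrpl3 (0.41) and Mrpl49 (0.40). The first 3 have the same course with larger steps, while the other 2 descend. Mrpl39 and Mrps9 were also lower at each later stage. Mrpl39 measured 40.5 and 42.0 FPKM at E11.5 and 30.5 and 30.2 FPKM at E18.5. Mrps9 measured 14.9 and 14.8 and then 10.3 and 10.2 FPKM. Their first 2 steps missed the threshold (limma, adjusted p = 0.156 and 0.0682 for Mrpl39, 0.238 and 0.132 for Mrps9).

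The closest to the median profile were Mrpl20, Mrpl35 and Mrpl22, at distances of 0.03 to 0.04. Mrpl20, a bL20 protein that takes part in early assembly of the large subunit, measured 26.4 and 28.2 FPKM, then 36.1 and 36.3, then 46.5 and 48.1 and last 32.8 and 30.4 FPKM. Its differences in the 3 steps were 0.39, 0.38 and -0.57.

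Members were also read by their roles. The uS18 paralogs Mrps18a, Mrps18b and Mrps18c occupy separate places on the ribosome, with Mrps18a bound to the large subunit. All 3 were highest at E15.5 under median-of-ratios scaling. Mrps18a measured 25.1 ± 0.68, 32.2 ± 1.8, 49.9 ± 0.84 and 35.6 ± 2.1 FPKM from E11.5 to E18.5 (SD, n = 2 libraries). Mrps18b measured 7.10, 11.7, 19.8 and 10.7 FPKM, and Mrps18c 14.3, 25.4, 35.1 and 22.6 FPKM. Each rose in the first step and fell in the last under all 4 scalings. For Mrps18b and Mrps18c 30.5% and 23.2% of exon bases lie in exons of a predicted gene.

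Other small-subunit members are known from human mitochondrial disease or from a second role. Mrps16 (bS16), whose loss causes a respiratory chain disorder, measured 10.1 ± 0.86, 12.8 ± 0.23, 21.1 ± 0.30 and 13.3 ± 1.2 FPKM (SD, n = 2 libraries). Mrps22, another disease gene, measured 17.9, 20.6, 20.8 and 12.3 FPKM, with a fall of -0.71 ± 0.06 in the last step (SE; limma, adjusted p = 5.34e-05). Mrps27, a protein with pentatricopeptide repeats, measured 20.6, 23.7, 28.0 and 16.2 FPKM. Mrps30, now placed in the large subunit, measured 11.8 FPKM at E13.5 and 8.38 FPKM at E18.5, with differences of 0.09, 0.05 and -0.51 in the 3 steps. It did not pass the test in the first step (limma, adjusted p = 0.121) or the second (limma, adjusted p = 0.378), and fell in the last (limma, adjusted p = 0.000115).

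Mrpl58 is a peptidyl-tRNA hydrolase that frees stalled chains, and it measured 27.0, 33.0, 46.0 and 31.9 FPKM. Mrps36, despite its name, is known as a component of the 2-oxoglutarate dehydrogenase complex. It measured 16.2 ± 2.5, 31.3 ± 1.4, 39.4 ± 0.076 and 27.5 ± 0.91 FPKM (SD, n = 2 libraries), highest at E15.5 as most ribosomal members were under median-of-ratios scaling.

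The summed level of the Mrpl genes over that of the Mrps genes does not depend on any scaling between stages. In the pairs of libraries it was 2.69 and 2.68 first, then 2.57 and 2.59, then 2.28 and 2.31 and last 2.29 and 2.30. The libraries of E11.5 lay above all later ones and those of E13.5 above those of E15.5 and E18.5, and the last pair of stages overlapped. With Mrps18a and Mrps30 counted as large-subunit genes and Mrps36 left out, the stage means were 2.96, 2.87, 2.54 and 2.56 in the same order. This course rested on 3 small-subunit genes with large rises up to E15.5. Leaving out such genes weakens the fall of the ratio by construction. Without Mrps12, Mrps24 and Mrps28 the means were 3.25, 3.37, 3.31 and 3.16, with no fall from E11.5 to E15.5. The ratio of the median levels of the groups had stage means between 1.57 (E18.5) and 1.68 (E15.5), and the libraries of the stages overlapped. The other gene sets and the medians were chosen after the values were seen. The ratio of the members' summed level to that of the cytosolic ribosomal proteins was 0.361, 0.232, 0.169 and 0.293 from E11.5 to E18.5, and to that of the nuclear respiratory chain genes 0.491, 0.385, 0.371 and 0.366.

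Lists of related genes were set beside the members. They were chosen by role and not by how they moved, with earlier results on these data known. Of all genes, 32.1% rose and 37.1% fell in the first step under median-of-ratios scaling. In the second step 29.6% rose and 27.5% fell, and in the last 38.1% and 31.3%. Counts in the lists below are to be read against these shares. Of 5 mitoribosomal proteins with other symbols, 4 rose and 1 fell from E13.5 to E15.5 under median-of-ratios scaling, with a median of 0.52 (-0.10 at the lowest under another scaling). All 5 fell from E15.5 to E18.5, and their median lay between -0.72 and -0.47 over the 4 scalings. Ptcd3, a pentatricopeptide protein of the small subunit, descended throughout, from 17.8 to 15.7, 12.1 and 7.40 FPKM, like Mrpl3 and Mrpl49. Aurkaip1, also of the small subunit, had the family's course at 47.5, 61.7, 102 and 61.8 FPKM.

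The respiratory chain and the cytosolic ribosome had larger medians than the members in the first step under every scaling. Of 71 nuclear respiratory chain genes tested, 57 rose and 3 fell from E11.5 to E13.5 (80.3% and 4.23%, against 32.1% and 37.1% of all genes). From E15.5 to E18.5, 4 rose and 59 fell (5.63% and 83.1%, against 38.1% and 31.3%). Relative to the median of all genes, their median was 0.69 to 0.71 in the first step, 0.41 to 0.59 in the second and -0.70 to -0.59 in the last over the 4 scalings. The same values for the cytosolic ribosomal proteins were 0.92 to 0.94, 0.67 to 0.88 and -1.54 to -1.42. Of the 63 cytosolic genes tested, 59 rose in the first step and 62 fell in the last (32.1% and 31.3% of all genes). Their reads are uncertain, since this family has many processed copies in the genome. For the mitochondrially encoded proteins the relative medians were 0.49 to 0.55, 0.78 to 0.89 and -0.78 to -0.66. Of the 8 tested, 4 rose and 1 fell in the first step (32.1% and 37.1% of all genes).

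A list of 12 general mitochondrial proteins, among them import channels, chaperones and prohibitins, had medians close to those of the members in the first and last steps. Relative to the median of all genes they were 0.48 to 0.50 in the first step, -0.13 to 0.05 in the second and -0.62 to -0.50 in the last over the 4 scalings. Under median-of-ratios scaling, 5 of the 9 tested rose and 3 fell in the first step (32.1% and 37.1% of all genes). In the second 5 rose and 2 fell (29.6% and 27.5%), and in the last all 9 fell (31.3%). Hspe1, the mitochondrial co-chaperonin, measured 56.2, 119, 220 and 48.7 FPKM, while Cs, citrate synthase, measured 39.0, 28.6, 26.1 and 20.6 FPKM.

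The factors that build and serve the mitochondrial ribosome had medians nearer to that of all genes than the members had, in the first and last steps. Of 25 genes for mitoribosome assembly and rRNA modification, 7 rose and 9 fell from E11.5 to E13.5, and 4 rose and 11 fell from E15.5 to E18.5. Their relative median stayed between -0.17 and 0.04 in the 3 steps over the 4 scalings. Of 14 translation factors, 3 rose and 3 fell in the first step, 4 and 4 in the second, and 4 and 7 in the last. In the first step 28.0% of the assembly genes rose and 36.0% fell, near the 32.1% and 37.1% of all genes. For the translation factors both shares were 21.4% in that step. In the second both were 28.6%, near the 29.6% and 27.5% of all genes. Tufm, the elongation factor that delivers tRNAs, measured 73.3, 78.3, 87.3 and 56.5 FPKM. Mtif3, an initiation factor, was highest at E18.5 at 5.40 FPKM, against 2.66 at E11.5. Of 20 genes of the mitochondrial aminoacyl-tRNA enzymes, 8 rose and 4 fell in the first step, 5 and 6 in the second, and 3 and 8 in the last. In that last step, where 38.1% of all genes rose and 31.3% fell, falls outnumbered rises in all 3 lists. In it 44.0% of the assembly genes and 40.0% of the tRNA enzymes fell, as did 7 of the 14 translation factors. Relative to the median of all genes the 3 list medians lay between -0.20 and -0.07 in that step over the 4 scalings.

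Genes of mitochondrial DNA replication and transcription had relative medians between -0.15 and 0.13 in the 3 steps. Tfam, the packaging and transcription factor of mitochondrial DNA, measured 18.9, 26.7, 22.9 and 12.5 FPKM, with its highest level at E13.5. Of the 6 regulators tested, 1 rose and 2 fell in the first step (32.1% and 37.1% of all genes). In the second 2 rose and 2 fell (29.6% and 27.5%), and in the last 1 rose and 3 fell (38.1% and 31.3%). Relative to all genes their median in the last step was -0.43 to -0.36 over the 4 scalings. Among them Myc measured 10.1 ± 0.95, 57.1 ± 0.98, 50.3 ± 1.7 and 17.9 ± 0.80 FPKM (SD, n = 2 libraries). Its difference in the first step was 2.39 (limma, adjusted p = 4.53e-07). Yy1 measured 5.88, 6.01, 11.8 and 6.20 FPKM and Gabpa, an ETS factor, 4.58, 5.04, 6.86 and 3.68 FPKM. Nrf1 measured 8.16, 5.73, 4.13 and 4.21 FPKM, highest at E11.5. Whether any of these regulators acts on the members was not tested.

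**Figure D5:**
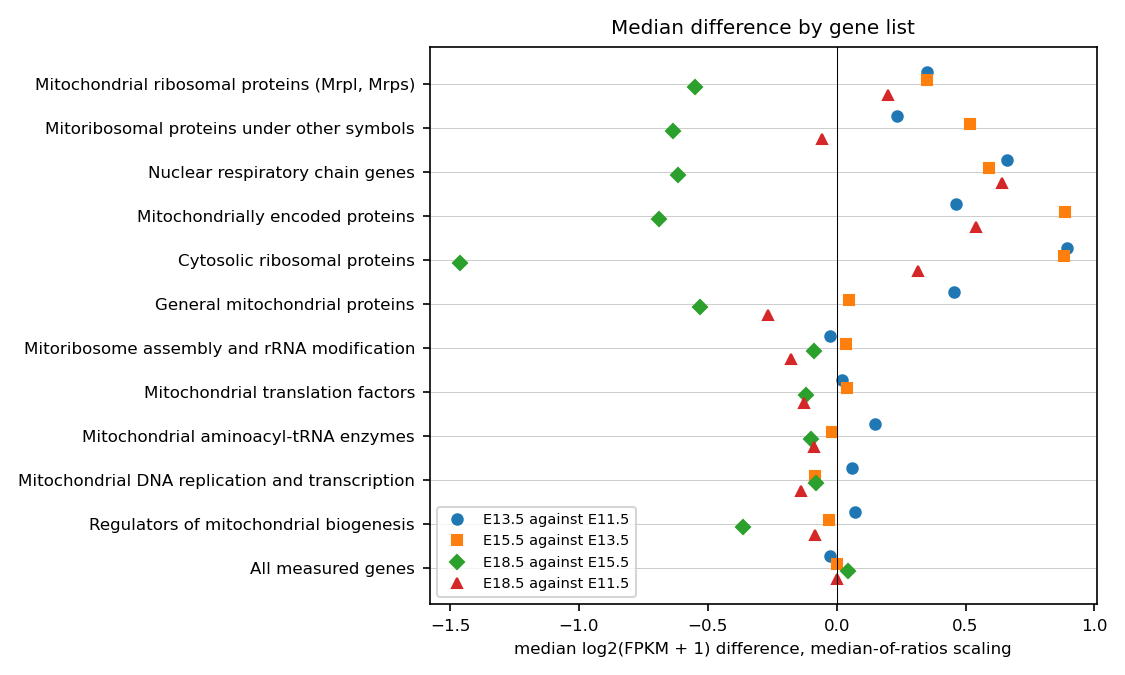
Points give the median log2(FPKM + 1) difference of each gene list after median-of-ratios scaling, with a marker for each comparison. The mitochondrial ribosomal proteins, the respiratory chain, the mitochondrially encoded proteins and the cytosolic ribosome lie apart from zero. So do the general mitochondrial proteins in the first and last steps (0.46 and -0.53) and the regulators in the last (-0.36). The assembly, translation and DNA maintenance lists lie nearer to zero. With the same total FPKM the members' median turns negative between E13.5 and E15.5 (-0.26) and between E11.5 and E18.5 (-0.37).

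Levels differed between members far more than between stages. Averaged over the stages, the highest were Mrpl28, Mrpl18, Mrpl27, Mrps12 and Mrpl34 and the lowest above 0 were Mrpl33, Mrps35, Mrps25 and Mrpl47. Mrpl28 measured 161 ± 4.7, 189 ± 7.7, 297 ± 1.1 and 159 ± 1.1 FPKM (SD, n = 2 libraries), and Mrpl33 2.23 ± 0.13, 3.31 ± 0.10, 4.38 ± 0.29 and 3.06 ± 0.035 FPKM. FPKM divides by all exon bases of a gene, and these lengths ran from 607 bases (Mrpl34) to 8631 bases (Mrps35), with a median of 2255 against 4198 for measured protein-coding genes. Across the 77 members Spearman's rho between exon length and mean level was -0.75, and across 12493 measured protein-coding genes -0.33. These are correlations across genes, which are not independent replicates. Length did not track the differences as closely: rho was -0.11, -0.24 and 0.05 in the 3 steps and -0.24 from E11.5 to E18.5. The backgrounds above are not matched for length. Under median-of-ratios scaling, 1950 measured protein-coding genes under 2000 bases had medians of 0.20, 0.17 and 0 in the 3 steps. From E11.5 to E18.5 they had 0.29. The 31 members under 2000 bases had 0.42, 0.42 and -0.57, and 0.26 over the whole span. Against short genes their excess was thus smaller in the first 2 steps, and over the whole span there was none.

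Mrpl53 is listed at 0 in all 4 stages. It lies at chr6:83109040-83109939, and 88.0% of its exon bases are in exons of other genes (Ccdc142os and Gm42688). In 18 of the 78 members over 10% of exon bases lie in another gene, so their reads are uncertain because the sources used here do not say whether counting used strand. Without these members the median difference from E15.5 to E18.5 was -0.51, against -0.55 with them.

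Members often lie head to head with another gene. The start of 33 of 78 members (42.3%) was within 1000 bases of, or overlapped, the start side of a gene on the other strand, against 15.8% of measured protein-coding genes. Several partners are mitochondrial too: Mrpl46 and Mrps11 face each other, Mrps12 faces Sars2 (172 bases apart), and Mrpl36, Mrpl47 and Mrpl43 face Ndufs6, Ndufb5 and Twnk. These pairs were named after their values were seen. The ratio of the levels of a pair changed with stage. Mrps12 was 4.33 times the level of Sars2, the mitochondrial seryl-tRNA synthetase, at E11.5 and 7.60, 15.1 and 15.7 times at the later stages, a ratio that no scaling changes. Sars2 fell in the first step by -0.39 ± 0.04 (SE; limma, adjusted p = 0.000162) while Mrps12 rose by 0.39 ± 0.09 (SE; limma, adjusted p = 0.00707), both under median-of-ratios scaling.

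Mrpl49 lies 59 bases from Fau, which encodes a cytosolic ribosomal protein fused to a ubiquitin-like protein. Mrpl49 was 1.17, 0.540, 0.274 and 0.533 times the level of Fau in stage order. The ratio of Mrpl46 to Mrps11, both mitoribosomal, was 1.76 at E11.5 and 2.19 to 2.37 later. That of Mrpl36 to Ndufs6, a complex I subunit, was 2.43, 1.79, 1.29 and 1.92.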

How the data were processed

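RNA sequencing data of 4 stages were used, 1 labelled sample each. The tool and build were HISAT2 2.0.5 and mm10, per the submitters' processing notes; no counting tool or annotation is named there. The authors deposited mean FPKM per gene. GENCODE M21, of the same build, gave symbols, positions and exon lengths. The members and lists were chosen with earlier results of these data known.

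Levels were divided by median-of-ratios factors (0.988, 1.03, 1.03 and 0.961) from the 9883 genes with 1 FPKM or more throughout. Each mean was split into whole reads of 2 libraries where a single pair matched it to 0.8 of the last digit. No more than 0.05 pairs were to be expected by chance, and 96.5% to 96.6% of genes attempted were split. For Mrpl28, Mrpl49, Mrpl11, Mrpl43 and Mrpl16 an exon length other than that of M21 gave whole reads, and it was used. For these genes and for abundant ones, only pairs of library values within 1.25-fold of each other were considered. Estimated reads were 0.897 to 1.26 times the FPKM denominator of a library. limma 3.58.1 in R 4.3.3 (mean-variance trend, Benjamini-Hochberg, threshold 0.05) was run on log2(FPKM + 1) of 13913 genes. The steps were also run on simulated data built from the recovered reads and exon lengths. Such data cannot show that the deposited means are made of 2 libraries. The rule of size was read on the log2(FPKM + 1) scale, which understates changes of low genes. With 1 labelled sample per stage the deposited means alone allow no test. Members were named by a rule: all past the rule of size, the 5 highest and lowest differences per comparison, the 5 highest and lowest levels, the Mrps18 paralogs, the 5 least and 3 most like the median profile, and 10 named for their role. From each list of related genes it allowed the 3 largest and 3 smallest differences and the 2 highest levels. Genes described outside the rule (Mrpl1, Mrpl39, Mrpl48, Mrpl51, Mrps11, Mrpl46, Mrpl36, Mrpl43, Gabpa, Cs and the partner genes) were named after their values were seen.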

Additional observations from a re-analysis of the deposited data

How the results depend on the processing

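Between E11.5 and E13.5 the median difference of the members was 0.22 with the same total FPKM. There, 18 members were higher by a 1.5-fold rule and 0 by a 3-fold rule. By limma 3 fell as deposited and 11 with the same total FPKM (34.4% and 44.5% of all genes). Between E13.5 and E15.5 the median reversed to -0.26 with the same total FPKM and -0.021 by estimated reads. There, 14 members were higher at 1.5-fold, 0 at 3-fold and 0 with the same total FPKM. By limma 4 rose and 51 fell with the same total FPKM (8.85% and 61.6% of all genes). By estimated reads 17 rose and 25 fell (14.6% and 50.2%), and with no mean-variance trend 1 fell (27.8%). Between E15.5 and E18.5 the median was -0.64 as deposited, -0.38 with the same total FPKM, -0.56 and -0.49 with pseudocounts of 0.1 and 5, -0.43 by estimated reads and -0.51 without members overlapping another gene. By the rule of size 36 members were lower at 1.5-fold, 0 at 3-fold and 1 with the same total FPKM. By limma 0 rose as deposited and with no trend (34.2% and 38.2% of all genes). With the same total FPKM 5 rose (44.5%), and by estimated reads 2 did (42.9%). Between E11.5 and E18.5 the median reversed to -0.37 with the same total FPKM and -0.10 by estimated reads. There, 2 members were higher as deposited, 0 with the same total FPKM, 14 at 1.5-fold and 0 at 3-fold, and 9 were lower with the same total FPKM and 2 at 1.5-fold; by limma 9 rose and 53 fell with the same total FPKM (22.4% and 59.3% of all genes), and 20 rose and 36 fell by estimated reads (28.8% and 50.3%). The share of all genes past the rule of size was not counted at these settings, so those counts describe the members only. The cause of these changes was not tested, except that stricter or looser folds admit fewer or more genes by construction. Scaling by estimated reads, leaving out overlapping members and the other gene sets for the ratio of Mrpl to Mrps genes were chosen after the data were seen.

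Leaving out each library in turn, 50 to 60 members rose and 4 to 7 fell in the first comparison, 47 to 57 rose and 0 to 3 fell in the second, 0 to 1 rose and 67 to 70 fell in the third, and 29 to 42 rose and 17 to 21 fell in the fourth; the lone library of a stage is then assumed to vary like the others. No paired analysis was possible because the labels give 1 sample per stage and the recovered libraries carry no numbers that link stages. With 176 or more reads per member and library, the counting error of a difference had a median of 0.0403 to 0.0462. The median limma SE was 0.0556 in each of the 4 comparisons. In 8 to 24 of the 77 members the counting error was above the SE. The SE and adjusted p-values of those members may therefore be too small. Depth as well as 2 libraries per stage limits the precision.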
